A study of Mus musculus with 18 samples.

Results

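Genes of B and T lymphocytes were examined in the adipose tissue of mice with and without the long noncoding RNA Gm15551. The genes were chosen by name, with earlier results of these data known, and are 32 of the 54347 rows of the deposited table. They comprise 11 genes of B cells, 17 genes of T cells, 3 genes that both lineages or all leukocytes share (Ltb, Cd27 and Ptprc) and Glycam1, a gene of the high endothelial venules through which lymphocytes enter lymph nodes. Polyadenylated RNA was sequenced from interscapular brown (iBAT), inguinal white (iWAT) and epididymal white (eWAT) adipose tissue of 6 mice, which gave 18 libraries in 6 groups of 3. All 3 tissues came from each animal. All animals were 12 weeks old and carried the strain label C57BL/6N-ΔGm15551. The groups are knockout (ko) mice, in which exon 1 of Gm15551 was deleted with CRISPR/Cas9, and wild type (wt) mice. Each library came from a piece of frozen whole tissue without sorting of cells, so that fewer cells of a type and less RNA per cell cannot be told apart. The methods of the study give a chow diet for the mice used in transcriptomics. Its results, however, name high-fat and control diets for the adipose tissue transcriptomes. Whether the inguinal lymph node was left in place is not given in the sources used here.

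B cells recognise antigen through a membrane immunoglobulin whose signal passes through Cd79a and Cd79b, and T cells through a receptor that signals through the CD3 chains and the zeta chain, encoded by Cd247. Both lineages circulate through lymph nodes, where B cells gather in follicles, drawn by the receptor Cxcr5, and naive T cells in the surrounding zone, drawn by Ccr7. The inguinal fat pad of the mouse holds a lymph node within the fat. Adipose tissue outside the node holds resident lymphocytes, among them regulatory T cells that depend on the transcription factor Foxp3.

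Total counts ranged from 14997901 to 34389586 per library. Levels are given as CPM, the usual unit that divides a count by the library total, with totals scaled by the trimmed mean of M values (TMM), and 3 counts, the limit that a count of 0 allows, equal 0.0728 to 0.235 CPM depending on the library. These limits and all intervals cover counting error only. Gm15551 held 40 to 316 counts in wild type libraries and 0 to 4 in knockout libraries, as labelled. In iWAT ko replicate 1 the summed CPM of 7 skeletal muscle genes was 4231, and in eWAT ko replicate 3 that of 6 epididymis genes was 4823. Libraries iWAT wt replicate 3 and iWAT ko replicate 2, from 1 mouse of each genotype, stood apart in the lymphocyte genes themselves and are called the lymphocyte-rich libraries. They are described first, and the other 16 libraries were then compared without them.

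The 250 bases before the RefSeq start of 4 of these genes are shown, because Cd3g and Cd3d are neighbours that point away from each other, Cr2 is a B cell gene and Glycam1 marks the venules. The starts of Cd3g and Cd3d lie 1355 bp apart on chromosome 9. The windows (GRCm38.p6) are chr9:44980432-44980681 on the minus strand for Cd3g, chr9:44981536-44981785 on the plus strand for Cd3d, chr1:195176720-195176969 on the minus strand for Cr2 and chr15:103565082-103565331 on the minus strand for Glycam1. Capitals mark AGGAAG, an ETS core, CAGGTG, an E-box, and CTTTGA, a TCF/LEF core, or their reverse complements.
Cd3g: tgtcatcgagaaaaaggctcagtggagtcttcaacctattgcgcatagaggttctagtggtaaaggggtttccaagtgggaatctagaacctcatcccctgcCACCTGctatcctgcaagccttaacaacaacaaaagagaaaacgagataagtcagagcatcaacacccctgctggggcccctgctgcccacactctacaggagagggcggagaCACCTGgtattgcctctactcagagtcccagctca
Cd3d: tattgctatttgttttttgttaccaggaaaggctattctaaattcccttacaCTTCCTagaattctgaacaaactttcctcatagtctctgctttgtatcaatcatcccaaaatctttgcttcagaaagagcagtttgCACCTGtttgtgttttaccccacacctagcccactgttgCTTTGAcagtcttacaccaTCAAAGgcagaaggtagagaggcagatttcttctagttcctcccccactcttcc
Cr2: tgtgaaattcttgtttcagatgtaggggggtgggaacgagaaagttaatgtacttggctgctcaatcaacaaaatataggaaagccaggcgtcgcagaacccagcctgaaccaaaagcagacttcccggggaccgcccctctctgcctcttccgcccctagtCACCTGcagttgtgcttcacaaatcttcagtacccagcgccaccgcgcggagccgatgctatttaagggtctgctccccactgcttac
Glycam1: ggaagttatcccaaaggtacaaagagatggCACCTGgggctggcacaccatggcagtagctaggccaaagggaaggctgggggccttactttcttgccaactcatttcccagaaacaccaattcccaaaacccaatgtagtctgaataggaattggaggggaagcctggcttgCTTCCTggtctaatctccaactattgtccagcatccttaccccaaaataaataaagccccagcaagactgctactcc

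Of the 4 windows, all hold an E-box in these letters, and no marked motif overlaps another. The E-box lies 35 and 148 bases before the start in Cd3g, 112 in Cd3d, 88 in Cr2 and 220 in Glycam1, each counted from its base farthest from the start. TGTGGT, a RUNX core, and TGCAAAT, a part of the octamer, were searched too, all on both strands. RefSeq windows were found for 23 of the 32 genes, 34 windows in all. The E-box stood in 15 of the 34 windows (44.1%) and in 17.2% of all 32851 windows of the same length, and AGGAAG stood in 19 (55.9%) against 29.5%. CTTTGA stood in 4 windows (11.8% against 13.8%), TGTGGT in 3 (8.82% against 14.0%) and TGCAAAT in 0 (3.56% of all windows). These shares describe letters in the windows, and binding was not measured.

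In iWAT, every one of the 32 genes was higher in both lymphocyte-rich libraries than in each of the other 4 libraries, and all 32 were higher in wt replicate 3 than in ko replicate 2. B cell genes stood further above the other libraries than T cell genes did. In wt replicate 3 the B cell genes were a median of 113.1 times their pooled level in the other 4 libraries, from 29.8 times for Bank1 to 217.4 times for Fcer2a. The T cell genes were a median of 30.3 times that level, from 5.86 for Cd247 to 90.5 for Ccr7. In ko replicate 2 the medians were 52.6 for B cell genes (15.5 for Bank1 to 98.9 for Cxcr5) and 9.70 for T cell genes (2.06 for Cd247 to 24.1 for Ccr7). The libraries are set apart by these same genes, so that the values are given without a test.

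**Figure D1:**
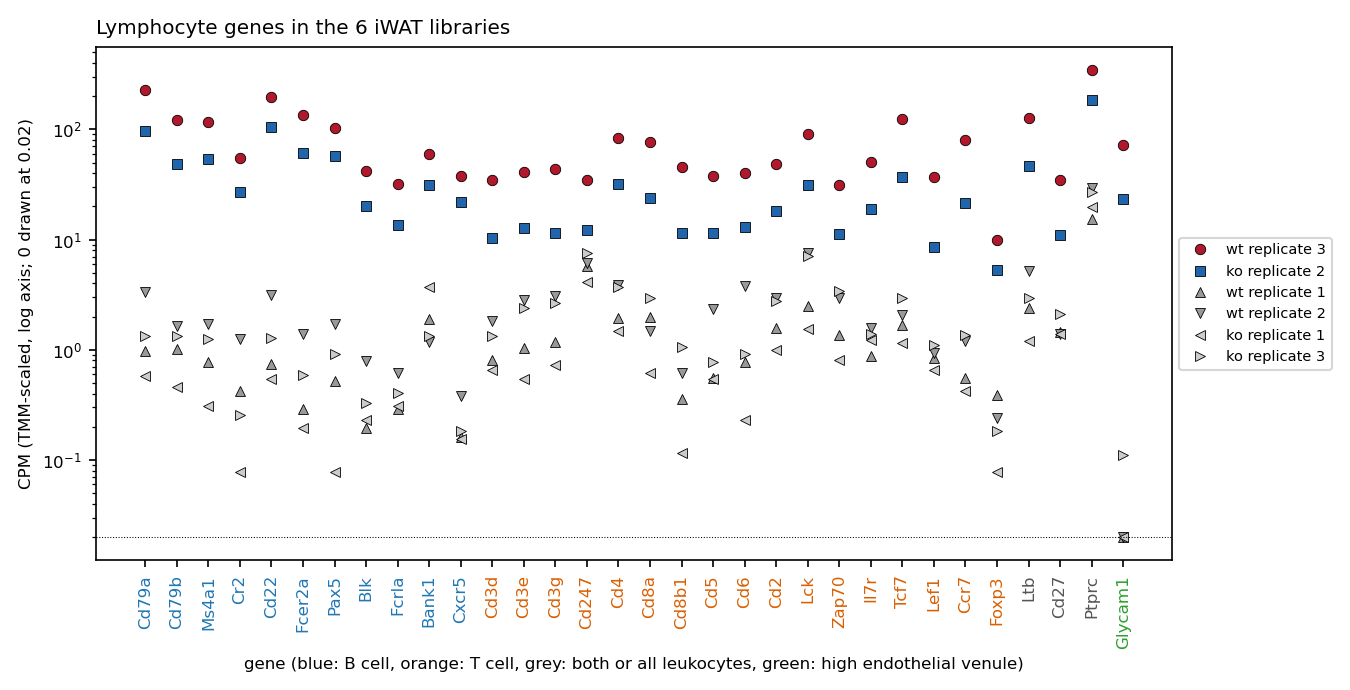
CPM of the 32 genes (horizontal axis, coloured by class) in the 6 iWAT libraries on a logarithmic vertical axis, 1 symbol per library. Circles (wt replicate 3) and squares (ko replicate 2) lie above the grey symbols of the other 4 libraries for 32 of 32 genes, and the circle lies above the square each time.

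Among the antigen receptor genes, Cd79a (ENSMUSG00000003379.7, chr7:24897381-24902197, plus strand) was at 229.8 CPM in wt replicate 3 and 96.8 CPM in ko replicate 2. The other 4 iWAT libraries held 0.974 and 3.32 CPM of Cd79a in wt replicates 1 and 2, and 0.580 and 1.32 CPM in ko replicates 1 and 3. Its partner Cd79b was at 121.4 and 48.8 CPM in the lymphocyte-rich libraries and at 0.464 to 1.66 CPM in the others. The lowest value of the lymphocyte-rich libraries was thus far above the highest of the others for both signalling chains of the B cell receptor.

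The 3 CD3 genes lie together on chromosome 9, Cd3g at 44969572 to 44980431, Cd3d at 44981786 to 44987339 and Cd3e at 44998740 to 45009627. Cd3d was at 34.9 CPM in wt replicate 3 and 10.3 in ko replicate 2, against 0.657 to 1.83 in the other 4 libraries. Cd3e was at 40.8 and 12.7 CPM against 0.541 to 2.83. Cd3g was at 43.5 and 11.5 CPM against 0.735 to 3.08. All 3 were at least 5.98 times their pooled level in the other 4 libraries, also in ko replicate 2. The zeta chain gene Cd247 (chr1:165788681-165877277) stood closest to the other libraries of all 17 T cell genes, with 34.9 and 12.3 CPM against 4.14 to 7.63.

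The surface proteins of B cells were high in the same libraries. Ms4a1, which encodes CD20, was at 116.3 and 54.1 CPM in wt replicate 3 and ko replicate 2, against 0.309 to 1.73 in the other 4. Cd22, an inhibitory receptor, was at 198.2 and 105.3 CPM against 0.541 to 3.11. Cr2, the complement receptor CD21 that B cells and follicular dendritic cells carry, was at 54.6 and 26.7 CPM against 0.0773 to 1.24, and Fcer2a, the low affinity IgE receptor CD23, was at 134.8 and 61.0 CPM against 0.193 to 1.38. Follicular B cells carry both Cr2 and Fcer2a. Of the intracellular B cell genes, the lineage factor Pax5 was at 103.8 and 56.8 CPM against 0.0773 to 1.73, and the Src family kinase Blk at 41.7 and 20.4 CPM against 0.195 to 0.795. Bank1, a scaffold of B cell signalling, was at 59.6 and 31.1 CPM against 1.18 to 3.75, and Fcrla at 31.7 and 13.4 CPM against 0.292 to 0.622. Cxcr5, the receptor of the follicle chemokine Cxcl13, was at 37.8 and 21.9 CPM against 0.155 to 0.380.

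The T cell genes showed the same separation with a larger distance between the lymphocyte-rich libraries. Cd4, the coreceptor of helper T cells, was at 83.8 CPM in wt replicate 3, 32.2 in ko replicate 2 and 1.47 to 3.87 in the others. Cd8a and Cd8b1, which encode the coreceptor chains of cytotoxic T cells, were at 77.1 and 45.7 CPM in wt replicate 3 and at 23.6 and 11.4 in ko replicate 2. The kinases of the receptor followed, Lck with 91.1 and 31.1 CPM and Zap70 with 31.2 and 11.1 CPM, against 1.55 to 7.57 and 0.812 to 3.45 in the other 4 libraries. The transcription factors and receptors of naive and memory T cells followed the same order. Tcf7 was at 123.3 and 37.2 CPM, Lef1 at 36.7 and 8.60 CPM, Ccr7 at 80.2 and 21.4 CPM, and the interleukin 7 receptor gene Il7r at 51.0 and 18.8 CPM. In the other 4 libraries these 4 genes lay between 0.425 and 2.94 CPM. Foxp3, the factor of regulatory T cells, was at 9.96 and 5.35 CPM against 0.0773 to 0.390. The surface proteins Cd5, Cd6 and Cd2 were at 37.8, 40.5 and 48.6 CPM in wt replicate 3 and at 11.5, 13.1 and 18.1 CPM in ko replicate 2, with no other iWAT library above 3.80 CPM.

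Ptprc, which encodes the pan-leukocyte protein CD45, was at 343.0 and 183.7 CPM in the lymphocyte-rich libraries, against 15.4 to 29.2 in the others. Ltb, the lymphotoxin subunit with which lymphocytes maintain lymphoid stroma, was at 127.5 and 46.5 CPM against 1.20 to 5.15, and the costimulatory receptor Cd27 at 34.4 and 10.9 CPM against 1.38 to 2.13. Glycam1 (chr15:103562759-103565081) held 2190 counts in wt replicate 3 and 541 in ko replicate 2, while the other 4 iWAT libraries held 3 counts together and no library of iBAT or eWAT more than 3.

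Genes of lymph node stroma and venules that do not belong to the 32 were examined in the same libraries. All 6 that were found of a list of 7 were higher in both lymphocyte-rich libraries than in each of the other 4. Ccl21a, a ligand of Ccr7, was at 252.9 and 64.2 CPM against 0 to 6.11, Ccl19, the other ligand, at 65.3 and 19.2 CPM against 0.714 to 1.80, and Cxcl13 at 65.2 and 40.8 CPM against 0.877 to 11.4. The venule genes Madcam1, Chst4 and Fut7 were at 1.62, 4.91 and 6.56 CPM in wt replicate 3 and at 0.984, 1.75 and 2.99 CPM in ko replicate 2. The other 4 libraries reached 0.624, 0 and 0.232 CPM. In eWAT, Ccl21a reached 51.0 CPM and Ccl19 15.8 CPM, while Glycam1 held 3 counts or fewer. Chst4 reached 1.89 CPM in eWAT, above its level in ko replicate 2. Whether a lymph node was in the pieces of tissue taken is not recorded.

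Other cell types differed in the same libraries. The summed CPM of 6 adipocyte genes was 7262 in wt replicate 3 and 10510 in ko replicate 2, against 18390 to 20970 in the other 4. The summed CPM of 9 macrophage genes was 1857 and 1873, against 359.2 to 858.1, and 8 of the 9 were above the other 4 libraries in both. Their part in the lymphocyte values was not tested.

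The balance of B and T cell genes differed between the lymphocyte-rich libraries themselves. Wt replicate 3 held 2.11 times the summed B cell CPM of ko replicate 2 (1130 and 536.3 CPM) and 3.14 times its summed T cell CPM (911.0 and 290.3 CPM). Gene by gene, the ratio of wt replicate 3 to ko replicate 2 was 1.73 (Cxcr5) to 2.49 (Cd79b) with a median of 2.05 over the 11 B cell genes. It was 1.86 (Foxp3) to 4.27 (Lef1) with a median of 3.21 over the 17 T cell genes. Thus 16 of the 17 T cell genes had a ratio above that of every B cell gene, and Foxp3 was the exception. For 11 of the 17, the whole 95% counting interval lay above the highest B cell ratio. With 1 library on each side, no test between mice was possible and the difference applies to these libraries.

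**Figure D2:**
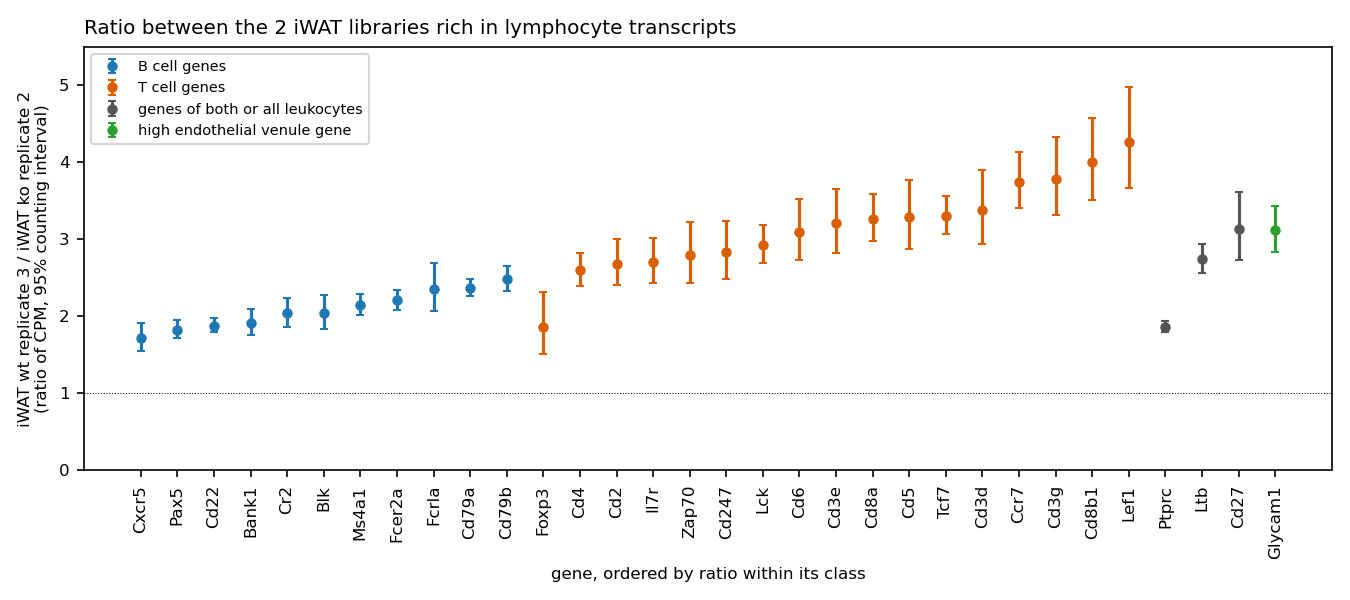
Ratio of CPM in iWAT wt replicate 3 to iWAT ko replicate 2 (vertical axis, linear from 0) for the 32 genes, ordered within their class. Points are ratios and bars are 95% counting intervals, and the B cell genes lie between 1.73 and 2.49, below all T cell genes but Foxp3.

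The 4 highest ratios among the T cell genes belonged to Lef1, Cd8b1, Cd3g and Ccr7, and the lowest after Foxp3 to Cd4, Cd2 and Il7r (2.60 to 2.71). Lef1 had a ratio of 4.27 (95% interval 3.67 to 4.99), Cd8b1 of 4.01 (3.51 to 4.58), Cd3g of 3.78 (3.31 to 4.33) and Ccr7 of 3.75 (3.40 to 4.14). Cd4 had a ratio of 2.60 (2.40 to 2.83), below that of Cd8a with 3.27 (2.98 to 3.59), and the intervals did not overlap. Cd4 made up 52.1% of the summed Cd4 and Cd8a counts in wt replicate 3 (Clopper-Pearson 95% interval 50.7 to 53.5) and 57.7% in ko replicate 2 (55.0 to 60.4). Ptprc had a ratio of 1.87 (1.80 to 1.93), within the range of the B cell genes. Ltb had 2.74 (2.56 to 2.93), Cd27 3.14 (2.73 to 3.61) and Glycam1 3.12 (2.84 to 3.44), within the range of the T cell genes. Subtraction of the pooled level of the other 4 libraries, which differs between genes, left medians of 2.07 for B cell and 3.45 for T cell genes. The sums of other B cell genes (18 genes) and other T cell genes (21 found) had ratios of 1.996 and 2.33, so that the distance between the lineages was smaller there. Further lists did not keep the order of the lineages. The sum of plasma cell genes, of the B lineage, had a ratio of 2.56, the regulatory T cell genes 1.95, the natural killer and cytotoxic genes 1.94, the dendritic cell genes 1.57 and the neutrophil and mast cell genes 2.59. Of the stroma genes, the T zone chemokines Ccl21a and Ccl19 had ratios of 3.94 and 3.39, and the follicle chemokine Cxcl13 a ratio of 1.60. The venule genes spread over this range, with 1.64 for Madcam1, 2.19 for Fut7 and 2.80 for Chst4. The macrophage sum had a ratio of 0.991.

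As a share of the counts of B plus T cell genes, B cell genes made up 55.4% in wt replicate 3 (95% Clopper-Pearson interval 55.0 to 55.8) and 64.9% in ko replicate 2 (64.2 to 65.6). In the other 16 libraries the share was 17.3% to 37.9%. The share depends on the length and number of the genes on each side, so that it ranks libraries and does not count cells. Within these bounds T cell genes outweighed B cell genes in all 16 libraries, and B cell genes outweighed T cell genes in both lymphocyte-rich libraries. By tissue, the share was 18.3% to 36.6% in iBAT (median 27.0%, 6 libraries), 17.3% to 29.5% in the other 4 iWAT libraries (median 25.2%) and 18.9% to 37.9% in eWAT (median 30.8%, 6 libraries). The ranges of the 3 tissues overlapped. Restricted to the chains of the antigen receptors (Cd79a and Cd79b against Cd3d, Cd3e, Cd3g and Cd247), the share was 69.5% in wt replicate 3 and 75.7% in ko replicate 2. In the others it was 14.7% to 55.0%, of which the 55.0% in iBAT ko replicate 1 rests on 22 and 18 counts. In these 16 libraries Cd247 held from 179 of 403 T side counts (iWAT wt replicate 2) to 135 of 156 (eWAT ko replicate 1). In the lymphocyte-rich libraries it held 1059 of 4673 and 288 of 1095, so that the share depends on this gene. Without Cd247 the order differed between libraries. In eWAT ko replicate 2, Cd79a and Cd79b held 97 and 110 counts and Cd3d, Cd3e and Cd3g 35, 29 and 45. In iWAT ko replicate 3 these were 36 and 36 against 36, 65 and 73.

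**Figure D3:**
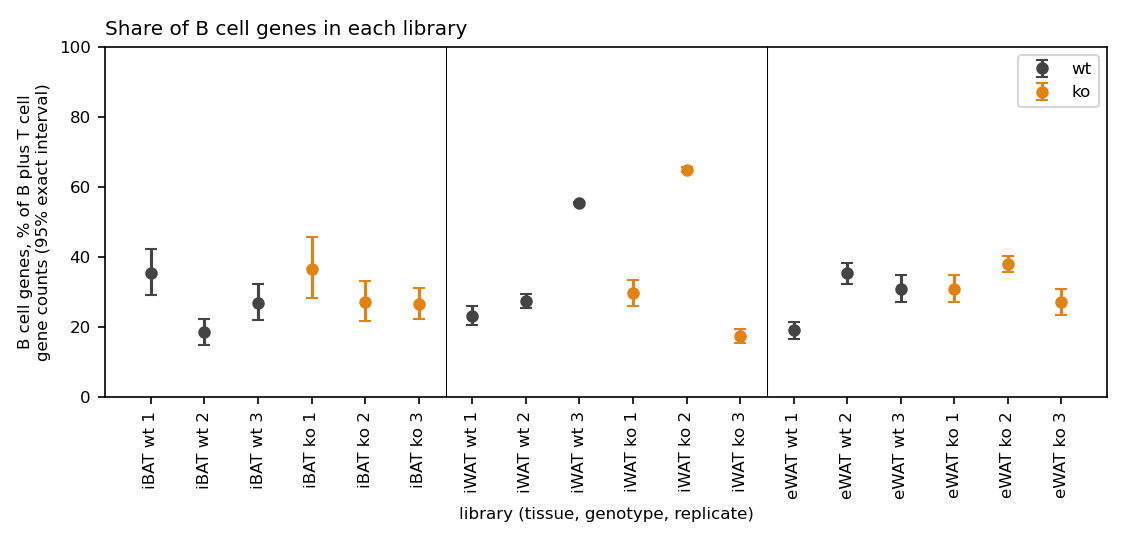
Share of B cell genes in the counts of B plus T cell genes (vertical axis, percent) in each of the 18 libraries, with exact 95% intervals. The 2 lymphocyte-rich iWAT libraries lie at 55.4% and 64.9%, above the range of 17.3% to 37.9% of the other 16.

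The weight of the lymphocyte-rich libraries in the comparison of tissues was then measured. For this, edgeR's quasi-likelihood test was run on every gene that passed a filter on low counts, with tissue and genotype as terms. A gene counted as called at a Benjamini-Hochberg adjusted p below 0.05. The filter left 31 of the 32 genes, all but Glycam1. The lymphocyte-rich libraries stand apart in these same genes and raise the mean of iWAT. Counts in comparisons with iWAT over all 18 libraries are thus a description and no independent support. With all 18 libraries, 31 of 31 genes were lower in iBAT than in iWAT, where 30.3% of all 18728 tested genes were lower. The log2 differences had a median of -4.82. DESeq2 gave an adjusted p to 14 of these genes and called all 14. With the mouse as a block 28 were called, without Cd79a, Foxp3 and Lef1, and in wild type libraries alone 25. In iWAT, 23 of 31 genes were higher than in eWAT, against 5.7% of all tested genes. Without iWAT wt replicate 3 that count was 0, without iWAT ko replicate 2 it was 1, and with the mouse as a block it was 0. Between iBAT and eWAT, Ptprc was the only gene called, lower in iBAT (adjusted p 0.0465), where 30.2% of all genes were lower, and with the mouse as a block Blk was called too. This count was 0 in wild type libraries alone and when any of several single iBAT or eWAT libraries was left out, 3 without iWAT wt replicate 3, and 10 in a fit of these tissues alone.

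Without the lymphocyte-rich libraries, 31 of 32 genes again passed the filter, and 19250 genes were tested. In iBAT, 11 of the 31 genes (35.5%) were lower than in eWAT and 0 were higher, against 32.9% of all tested genes that were lower and 24.9% that were higher. This share is near that of all genes. Compared with the other 4 iWAT libraries, 14 of 31 (45.2%) were lower in iBAT and 0 higher, against 24.5% and 21% of all tested genes. Both comparisons share the 6 iBAT libraries. The lymphocyte-rich libraries were left out for their values in these genes, which lowers the level of iWAT, so that comparisons with the 4 remaining iWAT libraries are a description. For these, the number of genes at the threshold is given for the 31 genes as a whole, and single genes are given by their values. The count of 14 fell to 6 without iWAT ko replicate 3 and to 7 without iWAT wt replicate 2. The means of iBAT and eWAT use neither of them. The median log2 difference of the 31 genes was -0.90 from eWAT and -1.35 from iWAT, beside -0.19 and -0.12 over all tested genes. In iWAT against eWAT no gene of the 31 was called, with 1 (Cd8a) at an unadjusted p below 0.05 by edgeR and 0 called by DESeq2, against 7.93% of all tested genes called in either direction. The log2 differences ranged from -1.04 for Blk to 1.32 for Cd8a.

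Ptprc (ENSMUSG00000026395.16, chr1:138062861-138175708) had the smallest p-value of the 31 genes in iBAT against eWAT. It was at 2.98 to 12.1 CPM in iBAT (median 4.85) and at 11.1 to 25.6 CPM in eWAT (median 18.5). In iWAT it was at 15.4 and 29.2 CPM in wt replicates 1 and 2 and 19.6 and 27.1 CPM in ko replicates 1 and 3. Of the iBAT libraries 1, wt replicate 2, lay above the lowest eWAT library, and none reached the iWAT libraries. The log2 difference was -1.67 ± 0.31 (SE) from eWAT (edgeR adjusted p 0.000287) and -1.98 ± 0.33 from iWAT. The sums of the 9 macrophage genes, which also carry CD45, were 85.0 to 205.7 CPM in iBAT, 359.2 to 858.1 in the 4 iWAT libraries and 199.3 to 725.9 in eWAT, and 9 of 9 were lower in iBAT than in eWAT. Their part in the difference of Ptprc was not tested.

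**Figure D4:**
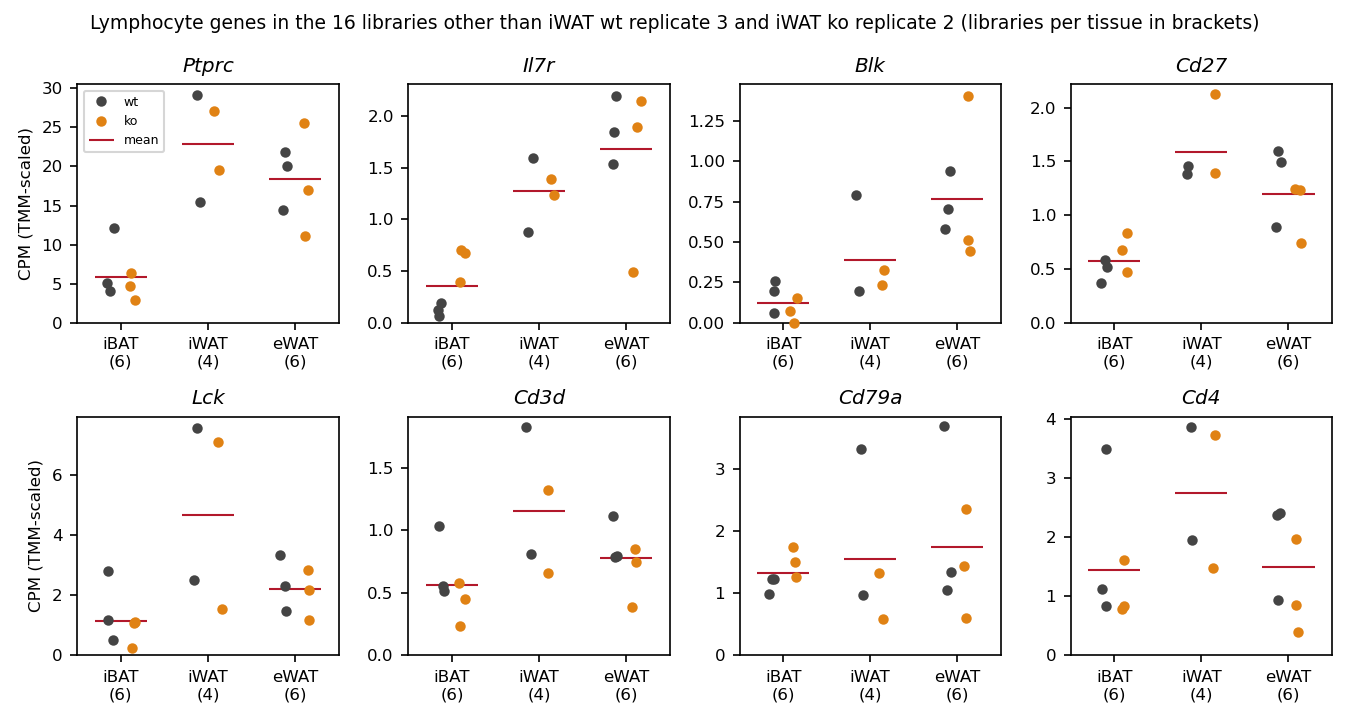
CPM of 8 genes (1 panel each, linear axes from 0) in the 16 libraries other than the lymphocyte-rich ones, by tissue. Points are libraries of wt (dark) and ko (orange) mice and red lines are means, and Blk in iBAT stays below the lowest eWAT library while Cd79a and Cd4 overlap between tissues.

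Of the B cell genes, Blk, Pax5, Fcrla, Cd22 and Bank1 were lower in iBAT than in eWAT. Blk ranged from 0 to 0.259 CPM (median 0.116) in iBAT and from 0.446 to 1.41 CPM (median 0.643) in eWAT, so that the groups did not overlap, although 5 of 6 iBAT libraries held 3 counts or fewer. Its log2 difference was -2.65 ± 0.57 (adjusted p 0.00103). Bank1 ranged from 0.157 to 0.907 CPM in iBAT and from 0.495 to 2.23 in eWAT, which overlapped, with a difference of -1.40 ± 0.44 (adjusted p 0.0144). Cd22 differed by -1.49 ± 0.46 (adjusted p 0.0122), Pax5 by -2.13 ± 0.75 (0.0248) and Fcrla by -1.70 ± 0.68 (0.0438). Pax5 and Fcrla lost the call in some of the fits that left out 1 library, and Cd22 and Fcrla in wild type libraries alone. Fcrla also lost it in a fit of iBAT and eWAT alone. From the 4 iWAT libraries, Blk, Cd22 and Bank1 differed by -1.61 ± 0.62, -1.26 ± 0.49 and -1.82 ± 0.48. The receptor chain gene Cd79a overlapped between all tissues, with medians of 1.24 CPM in iBAT, 1.15 in the 4 iWAT libraries and 1.39 in eWAT. Its differences of -0.36 ± 0.44 from eWAT and -0.15 ± 0.50 from iWAT were smaller than their standard errors. Cd79b, Ms4a1, Cr2, Fcer2a and Cxcr5 did not pass the threshold against eWAT, with differences of -0.65 to -1.13, although Ms4a1 passed in a fit of iBAT and eWAT alone.

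Of the T cell genes, Il7r, Cd2 and Tcf7 were lower in iBAT than in eWAT. Il7r was at 0.0646 to 0.708 CPM (median 0.293) in iBAT and at 0.495 to 2.20 CPM (median 1.87) in eWAT, where 1 library, ko replicate 3, lay within the iBAT range. The difference was -2.35 ± 0.49 (adjusted p 0.000786). In the 4 iWAT libraries Il7r was at 0.877 to 1.59 CPM, above all iBAT libraries, with a difference of -1.93 ± 0.52. Cd2, an adhesion receptor of lymphocytes, was at 0 to 1.17 CPM in iBAT and at 0.644 to 2.92 CPM in eWAT, and differed by -1.82 ± 0.54 (adjusted p 0.00955). Tcf7 differed by -1.42 ± 0.55 (adjusted p 0.0391), a value to which eWAT wt replicate 1 contributed 10.7 CPM against 0.939 to 2.97 in the other eWAT libraries. Without that library the difference was -0.53 (adjusted p 0.244), and with the mouse as a block it was -1.04 (adjusted p 0.134). Tcf7 was not called in a fit of iBAT and eWAT alone either.

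The receptor, coreceptor and kinase genes of T cells did not pass the threshold against eWAT, with differences of -0.04 (Cd4) to -1.001 (Lck), although Lck and Cd247 passed with the mouse as a block. Their values in the 4 iWAT libraries follow. Lck was at 0.235 to 2.79 CPM in iBAT and at 2.50 and 7.57 CPM in iWAT of wt replicates 1 and 2, and 1.55 and 7.08 CPM in ko replicates 1 and 3. The highest iBAT library, wt replicate 2, overlapped with iWAT, and the difference was -2.07 ± 0.55. Cd8a was at 0.225 to 1.03 CPM in iBAT and 0.619 to 2.97 in iWAT, a difference of -1.74 ± 0.58. Cd3d differed from iWAT by -1.05 ± 0.36, Cd3g by -1.93 ± 0.72 and Cd3e by -1.31 ± 0.60. Cd4 overlapped between the tissues (iBAT 0.783 to 3.50 CPM, the 4 iWAT libraries 1.47 to 3.87, eWAT 0.386 to 2.42), with differences of -0.04 ± 0.46 from eWAT (edgeR adjusted p 0.948) and -0.99 ± 0.50 from iWAT. The sign of the first changed when single libraries were left out (-0.44 to 0.23). Lef1 was the only gene of the 31 that was not lower in iBAT than in iWAT by its estimate, with 0.43 ± 0.46. Foxp3 held 0 to 26 counts per library in the 16 libraries. Its differences of -0.72 ± 0.87 from eWAT and -0.41 ± 0.98 from iWAT were smaller than their standard errors.

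The shared genes Ltb and Cd27 were lower in iBAT than in eWAT. In iBAT, Ltb lay at 0.157 to 1.30 CPM, with 1 library (wt replicate 2) reaching the ranges of the white depots, 1.20 to 5.15 in iWAT and 1.20 to 2.13 in eWAT. It differed by -1.50 ± 0.45 from eWAT (edgeR adjusted p 0.0105) and -2.32 ± 0.49 from iWAT. Cd27 lay at 0.371 to 0.837 CPM in iBAT, below all iWAT libraries (1.38 to 2.13) and below all but 1 of the eWAT libraries (0.743 to 1.60). It differed by -1.07 ± 0.27 from eWAT (adjusted p 0.00318) and -1.46 ± 0.29 from iWAT. Of the 11 genes lower than in eWAT, 8 passed in each of the 16 fits that left out 1 library, namely Bank1, Blk, Cd2, Cd22, Cd27, Il7r, Ltb and Ptprc, and all but Tcf7 passed with the mouse as a block. In wild type libraries alone Ltb did not pass.

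**Figure D5:**
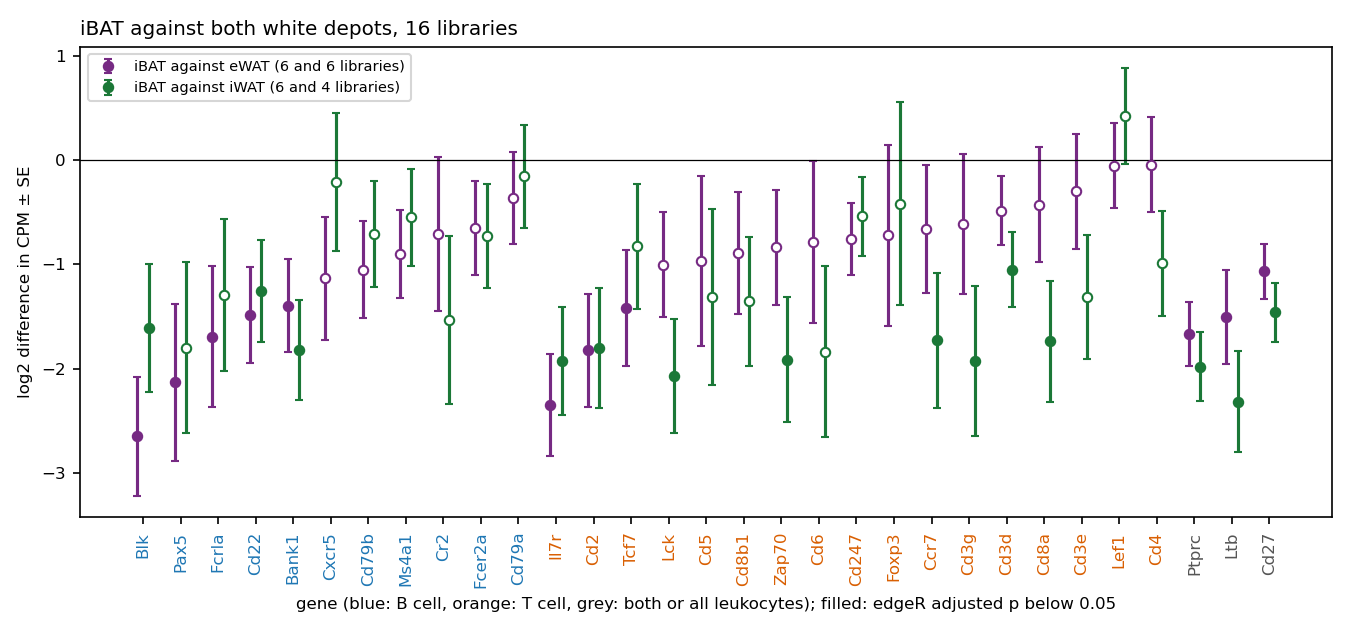
Log2 difference in CPM of iBAT from eWAT (purple) and from iWAT (green) for 31 genes in 16 libraries, with standard errors. Filled points passed an edgeR adjusted p of 0.05, and 11 purple and 14 green points are filled, all of them below 0, where the green points describe a comparison from which libraries were left out for these genes' values.

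Other genes of the lineages, from lists outside the 32, were counted in the same fits. Of 17 tested further B cell genes, 11 were lower in iBAT than in eWAT and none was higher, where 32.9% of all tested genes were lower. The summed CPM of the list of 18 was 14.0 to 25.2 in iBAT and 42.2 to 105.9 in eWAT, with the highest value in eWAT ko replicate 3, the library with epididymis transcripts, whose part was not tested. That library also held the highest eWAT sum of the further T cell, regulatory T cell and plasma cell genes. Its sum of the 11 B cell genes of the 32 was 7.87 CPM, near the lowest of eWAT (7.85), so that the list did not follow them there. All 9 macrophage genes were also lower in iBAT than in eWAT, and the part of myeloid cells in the list was not tested. Cd37, a tetraspanin of leukocytes, differed by -2.64 ± 0.36 from eWAT, the kinase Btk by -2.27 ± 0.40 and the inhibitory lectin Siglecg by -2.40 ± 0.44 (adjusted p 1.88e-05, 0.000175 and 0.00026). Of 20 further T cell genes, 3 were lower than in eWAT, a smaller share than that of all tested genes. They were Lcp2, an adaptor also present in myeloid cells, with -2.21 ± 0.26, Thy1 with -0.92 ± 0.23 and Rasgrp1 with -1.48 ± 0.43 (adjusted p 4.06e-06, 0.00325 and 0.00783). Of 10 genes of natural killer and cytotoxic cells, 8 were lower than in eWAT. From the 4 iWAT libraries, iBAT differed by a median of -1.20 for the further B cell genes, -1.53 for the further T cell genes and -3.11 for the natural killer and cytotoxic genes.

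The library with the highest values differed between tissues and lineages. In iBAT, wt replicate 2 was the highest of 6 libraries for 10 of 17 T cell genes, with 24.0 summed T cell CPM against 6.11 to 19.1 in the others. In the other 4 iWAT libraries the same mouse was the highest for 9 of 17 T cell and 10 of 11 B cell genes, while ko replicate 3 led 7 of 17 T cell genes. The summed B cell CPM in wt replicate 2 was 17.1 against 6.69 to 9.17. In eWAT, wt replicate 2 was the highest for 6 of 17 T cell genes, wt replicate 1 for 5, with the highest summed T cell CPM (36.9 against 30.4 in wt replicate 2), and ko replicate 2 for 6 of 11 B cell genes. The sums in eWAT were 7.85 to 17.0 CPM for B cell genes and 17.6 to 36.9 CPM for T cell genes, and those in iBAT 3.52 to 6.83 and 6.11 to 24.0 CPM. The iWAT of ko replicate 2, 1 of the lymphocyte-rich libraries, came from the mouse with the highest B cell sum in eWAT, and iBAT and eWAT of wt replicate 3 lay within the range of the other libraries.

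The genotypes were compared last. No gene of the 31 was called between ko and wt in the model across tissues, with 18 or with 16 libraries, and 0 reached an unadjusted p below 0.05 in either. In both sets 1 gene of all tested was called (0.00534% and 0.00519%). DESeq2 called 0 too, but gave 18 of the 32 genes no adjusted p with 18 libraries and 1 of the 32 with 16, so that it could call only the rest. Without the lymphocyte-rich libraries the log2 differences of ko from wt had a median of -0.33 and ranged from -1.09 for Cd6 to 0.61 for Ccr7. Within iBAT, iWAT and eWAT and in the interaction of genotype with tissue, 0 of 31 genes were called by edgeR and 0 had an unadjusted p below 0.05, where 0%, 0%, 0.00534% and 0% of all genes were called. DESeq2 also called 0 in these 4 comparisons, in each of which it gave 17 of the 32 genes no adjusted p. In iWAT all 31 estimates were below 0, from -1.90 for Lef1 to -0.75 for Ptprc, where wt replicate 3 and ko replicate 2 decide both group means. Cd79a in iWAT was at 0.974, 3.32 and 229.8 CPM in wt and 0.580, 96.8 and 1.32 CPM in ko replicates 1 to 3.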

How the data were processed

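RNA of 18 adipose tissue libraries was sequenced. The deposited values are expected counts per gene, whole numbers that the authors made from paired-end reads filtered with cutadapt and quantified with salmon on GENCODE M22 (GRCm38), alone or with RNAcentral. Which reference was used, whether strand was set and how transcripts were summed to genes is not given in the sources used here. Gene positions come from GENCODE M21, and promoters from RefSeq. Counts were tested with edgeR 4.0.16 (TMM, filterByExpr, quasi-likelihood F-test, Benjamini-Hochberg over all genes) in R 4.3.3, with tissue and genotype, or group means, as terms, and the fit was tested on simulated data. DESeq2 1.42.0 was an alternative. CPM use the TMM factors of the 18-library fit. Standard errors are the log2 difference divided by the root of F. Shares have Clopper-Pearson intervals. Ratios of CPM between libraries have 95% counting intervals.

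The labels give each mouse an identifier, which pairs its tissues. Residuals of the same mouse correlated with r of -0.165 to 0.326 over 18 pairs of tissues. The 3 libraries of a mouse are not independent. Genes and lists were chosen with earlier results of these data known. All 32 genes were named, and of the other lists up to 3 genes with the smallest p against eWAT, and all genes of lymph node stroma. Alternatives were DESeq2, other scaling, no filter, a replicate block, wild type only, fewer tissues, and leaving out libraries.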

Additional observations from a re-analysis of the deposited data

Results flagged for a closer look

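In each tissue, the highest or lowest of 6 libraries was compared with its nearest neighbour as a share of the whole range, against Dixon's 95% critical value. Of 105 comparisons 29 exceeded it, where chance flags about 1 in 20 groups. Of the 29, 20 lie in a library already set apart by these same genes, so that their number adds nothing to that description, and genes of 1 lineage are not independent.

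The library with 20 is iWAT wt replicate 3, whose nearest library was ko replicate 2 each time. Among the receptor and coreceptor genes the share was 0.718 for Cd3d, 0.698 for Cd3e, 0.748 for Cd3g, 0.734 for Cd247, 0.627 for Cd4, 0.699 for Cd8a and 0.752 for Cd8b1. Among surface and signalling genes it was 0.707 for Cd5, 0.681 for Cd6, 0.641 for Cd2, 0.67 for Lck and 0.66 for Zap70. Among the genes of naive and memory cells it was 0.642 for Il7r, 0.705 for Tcf7, 0.78 for Lef1 and 0.737 for Ccr7. It was 0.641 for Ltb, 0.71 for Cd27, 0.68 for Glycam1 and 0.693 for the summed T cell genes.

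In iBAT wt replicate 2, 5 genes exceeded the value, Cd4 with 0.696 (3.50 CPM, next 1.61), Cd5 with 0.651 (1.36, next 0.515), Lck with 0.636 (2.79, next 1.16), Ptprc with 0.635 (12.1, next 6.31) and Fcrla with 0.669 (0.583, next 0.193). Pax5 exceeded it in iBAT ko replicate 3 with 0.65 (0.708 CPM, next 0.248). In eWAT, Tcf7 exceeded it in wt replicate 1 with 0.791 (10.7 CPM, next 2.97) and Cd5 in ko replicate 3 with 0.653 (2.48 CPM, next 0.970), a library that also held epididymis transcripts, whose part was not tested. Glycam1 in iBAT wt replicate 3 had a share of 1.0, which rests on 1 count.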

How the results depend on the processing

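With all 18 libraries, the count of genes lower in iBAT than in iWAT was 31, 14 by DESeq2, which gave 18 of the 32 genes no adjusted p in each comparison of tissues with 18 libraries, and 28 to 32 when 1 library was left out, where 32 includes Glycam1. The count lower in iBAT than in eWAT was 1, and 2 by DESeq2, 2 with the replicate block (the mouse), 0 in wild type alone, 10 from these tissues alone and 0 to 3 when 1 library was left out. The count higher in iWAT than in eWAT was 23, and 13 by DESeq2, 0 with the replicate block, 0 in wild type alone, 0 from these tissues alone and 0 to 28 when 1 library was left out. It was 0 without iWAT wt replicate 3, 1 without iWAT ko replicate 2, and 6, 14 and 10 without eWAT wt replicates 1, 2 and 3.

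Without the lymphocyte-rich libraries, the count lower in iBAT than in iWAT was 14, 12 with the replicate block (without Cd22 and Ccr7), 12 by DESeq2 (without Blk and Cd22), 7 in wild type alone and 6 to 15 when 1 more library was left out, with 9 without iBAT wt replicate 1. The count lower than in eWAT was 11 and stayed between 8 and 12 in all alternatives, 12 with the replicate block. Cd4 in iBAT against eWAT changed sign when single libraries were left out (-0.44 to 0.23). No gene was called between genotypes in any alternative (DESeq2 gave 1 to 18 of the 32 genes no adjusted p), also with wt and ko libraries of the same number as a block, although those numbers pair nothing (r of -0.465 to 0.551 over 9 pairs, 4 over 0.1). Without TMM, the median folds over the other iWAT libraries were 146.8 (B) and 39.3 (T) in wt replicate 3 and 60.3 and 11.1 in ko replicate 2. The B cell share was 53.3% and 63.5% without Cd79a and Tcf7 and 69.5% and 75.7% from receptor chains. Low counts in iBAT, at 3 or fewer in 5 of 6 libraries for Blk and Fcrla, limit what could be detected there.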
